A study of Mus musculus with 8 samples.

Results

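Neurotransmitter receptor genes encode the proteins that bind glutamate, GABA, glycine, acetylcholine, serotonin or dopamine at the cell surface. The set was chosen by gene symbol alone, as the Pax6 binding sites whose assigned gene belongs to these receptor families, and it held 55 of the 26244 sites in the authors' deposited table. These 55 sites were assigned to 24 receptor genes. A RefSeq gene table (GRCm38.p6) held 95 genes whose symbols met the same rule, 2 of them long non-coding RNAs, so 71 had no listed site. The rule also takes in Grid2ip, an interacting protein and not a receptor, which had no listed site.

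Pax6 is a transcription factor with a paired domain and a homeodomain, and islet endocrine cells depend on it. Its neighbour Paupar gives a long non-coding RNA. ChIP-seq mapped Pax6 in alphaTC1 cells, a glucagon-producing mouse line derived from a tumour of a transgenic animal, with all libraries from this line. The control KD group received antisense oligonucleotides of a scrambled sequence and the Paupar KD group oligonucleotides against Paupar, with 2 Pax6 ChIP libraries in each. The labels give no dose or duration and call the 2 libraries of a group biological duplicates. The assay measured no RNA, so neither the knockdown, the identity of the cells nor receptor expression could be checked in these libraries.

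Receptor channels open when the transmitter binds, and G protein-coupled receptors signal through second messengers. In pancreatic islets, alpha cells release glutamate along with glucagon and carry AMPA and kainate receptors, whereas GABA from beta cells acts on GABA-A receptors of alpha cells and restrains glucagon release. Sites were assigned to a gene by the authors as the nearest annotated start, which does not show that Pax6 acts on that gene. A lower signal in every cell and binding in fewer cells cannot be told apart in such libraries.

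Concentrations below are the authors' log2 mean signal per group, without an SD or single-library values. Log2 changes are Paupar KD minus control KD, and a site was called where the authors' false discovery rate (FDR) was below 0.05. The values per library are summit scores, read as −log10 of the q-value of the highest peak summit within 250 bp of the middle of a site. A library with no such summit is said to have none. Scores depend on the depth of a library, which is unknown, so they describe a site within its library. Where scores or summits of the groups are said to overlap or differ, this describes the deposited lists, without correction for depth.

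In the authors' deposited table, 1 of 55 receptor sites was higher after Paupar KD and 1 was lower, where 3.26% and 0.846% of all 26244 sites were. Both directions together gave 3.64% of receptor sites and 4.1% of all sites, so the share of calls was near the background. The higher site lay in Gria2, an AMPA receptor subunit gene, and the lower one in Grm4, a metabotropic glutamate receptor gene. At an FDR below 0.1 the counts were again 1 and 1, where 4.99% and 1.8% of all sites passed. At an unadjusted p below 0.05 the counts were 4 higher and 3 lower, against a background of 10.7% and 6.67% of all sites. In all, 38 of 55 receptor sites (69.1%) had a log2 change below 0, 37 of them without passing the test, against 51.1% of all sites, and the medians were -0.40 and -0.03 in the authors' deposited table. Of these 38 sites, 12 belonged to Grik3. Without its 14 sites the receptor median was -0.30 over 41 sites, with 26 below 0.

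**Figure D1:**
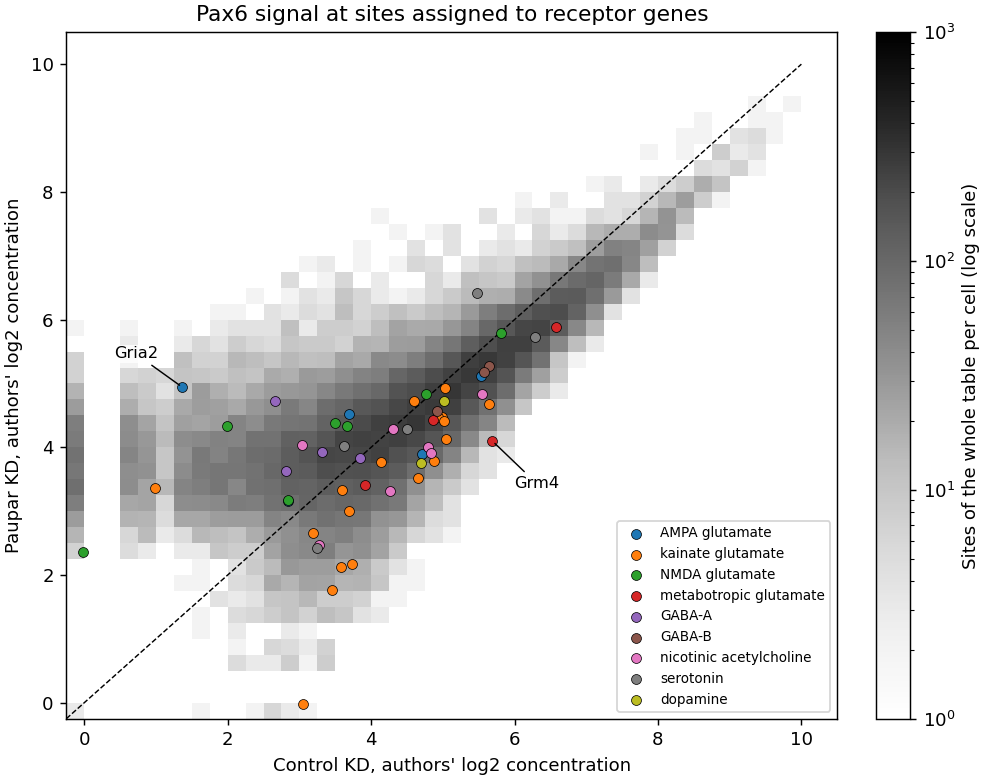
Authors' log2 concentration in control KD (x axis) and Paupar KD (y axis) at the 55 receptor sites, coloured by family, over the density of all sites in grey on a log scale. The dashed line marks equal signal; the called sites of Gria2 (1.37 and 4.94) and Grm4 (5.69 and 4.10) are named.

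Only the Htr2b site overlapped its gene's RefSeq promoter window (250 bases before to 50 after the start), among the member genes with a window in that table, and that sequence is shown because Pax6 signal was listed directly on it. The window lies at chr1:86111931-86112230 on the minus strand (GRCm38.p6, the assembly of mm10). Capitals mark the 100 bases of the Pax6 site, and the sequence runs 5′ to 3′ along the gene.
Htr2b: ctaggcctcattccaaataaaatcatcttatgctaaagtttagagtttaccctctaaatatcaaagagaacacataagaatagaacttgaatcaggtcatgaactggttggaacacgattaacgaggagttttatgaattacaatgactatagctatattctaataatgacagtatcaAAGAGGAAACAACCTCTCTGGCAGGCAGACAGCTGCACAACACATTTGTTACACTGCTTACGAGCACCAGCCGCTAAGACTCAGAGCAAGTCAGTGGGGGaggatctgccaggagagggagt
The 7-letter core of the Pax6 paired-domain motif, TTCACGC, was in neither strand of it, nor in any of the 83 RefSeq promoter windows of genes that met the rule, against 1.26% of 32851 windows. The homeodomain palindrome TAATNNNATTA, which reads the same on both strands and cannot contain the first motif, was in 1 of the 83 windows, that of Htr3b, a serotonin channel gene with no listed site, and in 0.487% of all windows. No match says only that these letters are not in the window. Htr2b encodes a Gq-coupled serotonin receptor, and the site also lies within the RefSeq span of Psmd1, a proteasome gene. The site had 3.24 for control KD and 2.42 for Paupar KD (FDR of 0.791 by the authors' deposited table). A summit was found in control KD replicate 1 alone, with a score of 6.98.

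The AMPA receptor genes had 5 sites at 3 of 4 genes, Gria1, Gria2 and Gria3; Gria4 had none. Gria2 encodes the subunit that keeps AMPA channels poorly permeable to calcium. Its called site lay in exon 7 of 16, 91.8 kb downstream of the assigned start (chromosome 3, 80710695 to 80710794, mm10). Neither control KD library had a summit there, while Paupar KD replicates 1 and 2 had scores of 25.0 and 6.47. Both Paupar KD libraries thus had a summit and both control KD libraries had none. Over all listed sites, those with a summit were 1.39 times as many in Paupar KD as in control KD libraries. The concentrations were 1.37 for control KD and 4.94 for Paupar KD, a log2 change of 3.57 (FDR of 0.0102 by the authors' deposited table).

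The second Gria2 site, 1.60 kb inside the gene and classed as promoter (chromosome 3, 80800876 to 80800975), was the strongest of the family. It had 5.53 and 5.11 (FDR of 0.733 by the authors' deposited table) and a summit in Paupar KD replicate 2 alone (score 12.1). The 2 sites of Gria2 therefore had log2 changes of opposite sign, and 1 of them was called. Gria3 had a site 45 bases inside its start (3.69 and 4.52, FDR 0.582) and one 89.2 kb into the gene (4.71 and 3.90, FDR 0.617), both by the authors' deposited table. The former had summits in both Paupar KD libraries (scores 5.29 and 4.39) and the latter in control KD replicate 2 alone (10.2). Gria1 had a single intronic site, at 2.84 and 3.16 (FDR of 0.917 by the authors' deposited table), with a control KD replicate 2 summit of score 2.18.

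**Figure D2:**
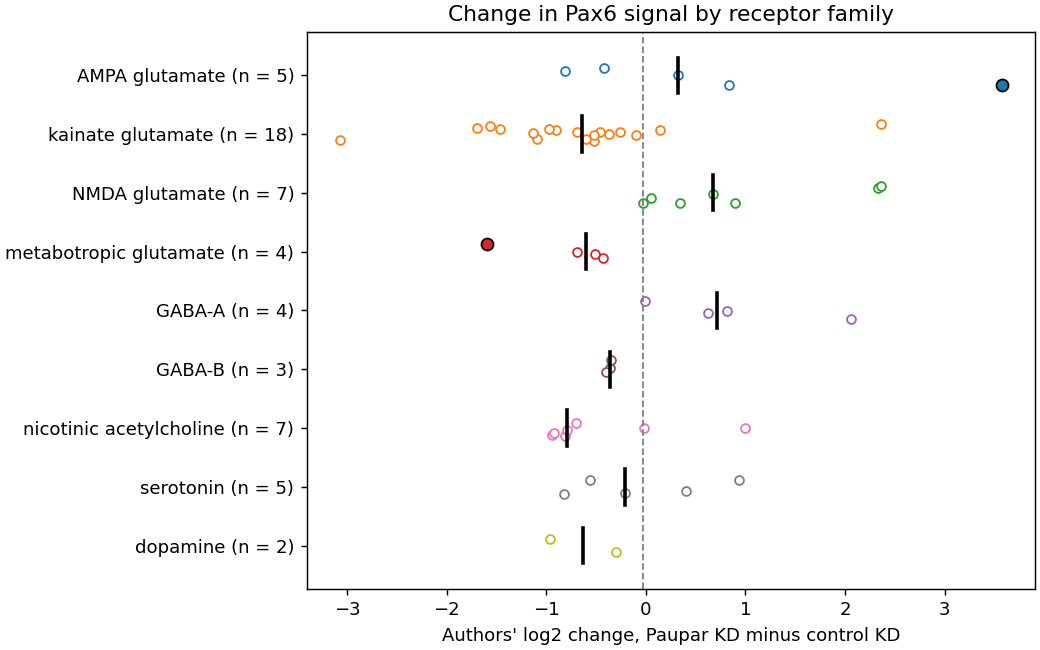
Authors' log2 change (Paupar KD minus control KD) at each receptor site by family, with filled points for called sites, black bars for family medians and the dashed line for the median of all sites (-0.03). The kainate median is -0.645 and the NMDA median 0.67; points are spread vertically for legibility.

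Kainate receptor genes held 18 of the 55 sites, and 16 of these had a log2 change below 0, against 51.1% of all sites. None was called at an FDR below 0.05, where 3.26% of all sites were higher and 0.846% lower. At an unadjusted p below 0.05, 0 were higher and 1 lower, against 10.7% and 6.67% of all sites. Kainate receptors are glutamate channels that also modulate transmitter release. Grik3, a low-affinity kainate subunit gene, carried 14 of the 18 sites. In the whole table, 155 of 10195 gene symbols had as many sites or more (1.52%), so the number is high but not alone. Of the 14 sites, 13 lay upstream of the gene, from 20.7 to 175 kb before its start, in a stretch of 154 kb with a median spacing of 7.14 kb. The nearest protein-coding gene on the far side, Zc3h12a, ended 188 kb beyond the outermost site, and 4 of the 13 sites lay inside the predicted RNA gene Gm32756.

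By mean concentration 6 of the Grik3 sites fell in the lowest quartile of the table, 1 in the second and 7 in the third. Their control KD concentrations ran from 0.99 to 5.65 in the authors' deposited table. The strongest (chromosome 4, 125469865 to 125469964), 20.7 kb upstream, had a summit in every library. Its scores were 6.13 and 3.53 in control KD and 6.74 and 4.62 in Paupar KD, so the groups overlapped. The concentrations were 5.65 and 4.68, a log2 change of -0.97 (p = 0.0444, FDR of 0.268 by the authors' deposited table), and the site was not called.

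Across the 14 Grik3 sites the log2 changes had a median of -0.80 and 12 lay below 0 in the authors' deposited table. The 2 others lay 59.4 kb upstream (4.60 and 4.73) and 169 kb upstream (0.99 and 3.36) in the authors' deposited table. The site 66.9 kb upstream was listed at the floor in Paupar KD (-0.02) against 3.05 in control KD in the authors' deposited table, and its only summit was in control KD replicate 2, with a score of 2.18. Both that site and the one at 169 kb lay outside the authors' adjustment (FDR 1.0 in the authors' deposited table). Summits were found at 8 and 6 Grik3 sites in the control KD libraries and at 4 and 6 in the Paupar KD libraries, so the groups met at 6. The Paupar KD mean was 0.714 times the control KD mean (exact permutation test, two-sided p = 0.67, with 0.33 the lowest possible for 4 libraries). Of the 14 sites, 7 had a summit in 1 library alone and 1 had none.

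**Figure D3:**
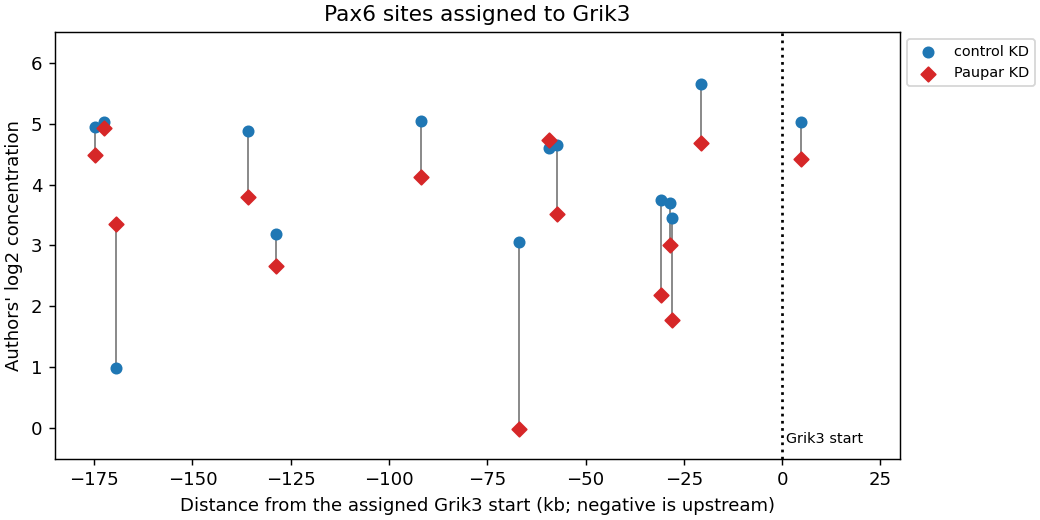
Authors' log2 concentration of control KD (circles) and Paupar KD (diamonds) at the 14 sites assigned to Grik3, by distance from its assigned start in kb. Paupar KD lies below control KD at 12 of the 14 sites, 13 of which are upstream.

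Grik2, whose subunit is a principal kainate channel former, had a site 45 bases inside its annotated start (chromosome 10, 49783115 to 49783214). Every library had a summit there, with scores of 2.30 and 6.57 in control KD and 9.50 and 3.05 in Paupar KD. The groups overlapped, and the concentrations were 4.99 and 4.47 (FDR of 0.692 by the authors' deposited table). The RefSeq promoter window of Grik2 lay 5491 bases away, at another start, so its sequence is not shown. A second Grik2 site lay 1172353 bases from the first and 483 kb beyond the RefSeq end of the gene. Its listed distance of 493 kb was counted from another annotated start. The second site had 3.59 and 3.33 (FDR of 0.922 by the authors' deposited table). Grik5, a high-affinity auxiliary kainate subunit gene, had 2 sites within the gene, at 4.14 and 3.77 (FDR 0.865) and at 3.58 and 2.12 (FDR of 0.518 by the authors' deposited table). Each had a summit in 1 control KD library alone.

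NMDA receptor genes went the other way in sign, with 6 of 7 log2 changes above 0, against 48.5% of all sites. None was called at an FDR below 0.05, where 3.26% of all sites were higher and 0.846% lower. At an unadjusted p below 0.05, 1 was higher and 0 lower, against 10.7% and 6.67% of all sites. Most of the 7 sites fell in the 2 lower quartiles of mean concentration. There, 69.8% (lowest) and 59.2% (second) of all sites lay above 0. The difference between the kainate and NMDA families was not tested. Grin2a encodes a glutamate-binding NMDA subunit and held 6 of these sites, and Grin2d the other one. The strongest, 295 kb downstream of the assigned start and 65.9 kb beyond the RefSeq end of the gene (chromosome 16, 9501878 to 9501977), had summits in every library. The scores were 34.4 and 27.1 in control KD and 38.3 and 34.5 in Paupar KD, and the highest control KD score lay just under the lowest Paupar KD one. The concentrations were nearly equal, 5.81 and 5.79 (FDR of 0.984 by the authors' deposited table).

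A site in intron 4 of 13 of Grin2a (chromosome 16, 9737288 to 9737387) had 1.99 and 4.33, a log2 change of 2.33 (p = 0.0107, FDR of 0.124 by the authors' deposited table). It did not pass the FDR, and its single summit was in Paupar KD replicate 2 (score 10.1). The next site, 2954 bases away in the same intron, was listed in the authors' deposited table at the floor (-0.01) for control KD and 2.36 for Paupar KD, outside the authors' adjustment. Its single summit was in Paupar KD replicate 1 (score 3.40). The 3 remaining Grin2a sites had 4.77 and 4.83 (FDR 0.978), 3.67 and 4.34 (FDR 0.766), and 3.49 and 4.38 (FDR of 0.584 by the authors' deposited table). Grin2d had 2.84 and 3.18 (FDR of 0.924 by the authors' deposited table). Grin1, which encodes the subunit common to NMDA receptors, had no listed site.

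Among metabotropic glutamate receptor genes, Grm4 encodes a presynaptic Gi-coupled receptor. Its called site lay in intron 2 of 8, 16.3 kb inside the assigned start (chromosome 17, 27456636 to 27456735). Summits were found in control KD replicate 1 (score 14.4) and in Paupar KD replicate 2 (5.80), and the other library of each group had none. The summit calls of the groups therefore overlapped. The concentrations were 5.69 and 4.10, a log2 change of -1.59 (p = 0.00177, FDR of 0.0448 by the authors' deposited table). Both upstream Grm4 sites lay 6.73 and 13.5 kb before another annotated start, and 14.3 and 21.1 kb outside the RefSeq span of Grm4. They also lay below 0, at 3.92 and 3.41 (FDR 0.824) and at 4.86 and 4.43 (FDR of 0.776 by the authors' deposited table).

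Grm2 encodes another Gi-coupled glutamate receptor and had the highest mean concentration of the 55 sites, 6.28, in the authors' deposited table. Its site (chromosome 9, 106643259 to 106643358) was classed as a 3′ UTR but lay 1.18 kb outside the RefSeq span of Grm2, within the predicted gene Gm28111. All libraries had a summit, with scores of 36.8 and 18.9 in control KD and 27.5 and 47.5 in Paupar KD, which overlapped. The concentrations were 6.58 and 5.89 (p = 0.0427, FDR of 0.262 by the authors' deposited table), and the site was not called. No other metabotropic glutamate receptor gene was listed.

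GABA-A receptors are chloride channels, and 3 of their 19 genes in the RefSeq table had sites, 4 in all. None was called at an FDR below 0.05, where 4.1% of all sites were. At an unadjusted p below 0.05, 1 was higher and 0 lower, against 10.7% and 6.67% of all sites. Gabrp encodes the pi subunit, found mainly outside the brain. Its intronic site (chromosome 11, 33556570 to 33556669) had no summit in either control KD library and scores of 10.7 and 8.47 in the Paupar KD libraries. The concentrations were 2.66 and 4.72, a log2 change of 2.06 (p = 0.00787, FDR of 0.105 by the authors' deposited table). That site missed the threshold. The other Gabrp site, 29.0 kb upstream inside the RNA gene D130052B06Rik, had 3.85 and 3.84 (FDR of 0.995 by the authors' deposited table).

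Gabrb1, a beta subunit gene, had a site 628 bases inside its start (chromosome 5, 71700560 to 71700659), at 3.32 and 3.93 (FDR of 0.765 by the authors' deposited table). No library had a summit there. Gabrr1, which encodes a rho subunit best known from the retina, had 2.81 and 3.63 (FDR 0.768) at a site 6.70 kb upstream in the authors' deposited table, and a summit in Paupar KD replicate 2 alone (score 3.14). None of the alpha, gamma, delta, epsilon or theta subunit genes had a listed site.

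GABA-B receptors are G protein-coupled, and Gabbr2 encodes the subunit that activates the G protein. Its 3 sites had log2 changes of -0.36, -0.35 and -0.40 in the authors' deposited table, with FDRs from 0.724 to 0.832. The strongest by mean concentration (chromosome 4, 46689614 to 46689713) lay 1.17 kb upstream of a start inside the RefSeq span of the gene and had 5.64 and 5.27 in the authors' deposited table. Every library had a summit there, at 29.0 and 8.32 in control KD and 16.7 and 9.82 in Paupar KD, and the groups overlapped. The intronic site, at 5.58 and 5.18 in the authors' deposited table, also had a summit in every library. Gabbr1, the ligand-binding partner, had no listed site. No glycine, delta glutamate or muscarinic receptor gene had one either.

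Nicotinic receptors are acetylcholine-gated cation channels, and 6 of the 7 sites at their genes lay below 0, against 51.1% of all sites. None was called at an FDR below 0.05, where 4.1% of all sites were. At an unadjusted p below 0.05, 0 passed in either direction, against 10.7% higher and 6.67% lower of all sites. Chrna4, a neuronal alpha subunit gene, had 5 sites. The strongest (chromosome 2, 181042300 to 181042399) had scores of 21.5 and 10.2 in control KD, none in Paupar KD replicate 1 and 13.6 in replicate 2. Its concentrations were 5.55 and 4.84 (FDR of 0.489 by the authors' deposited table). Of the 4 other Chrna4 sites, 3 lay below 0 and 1 above, at 3.03 and 4.03 (FDR of 0.608 by the authors' deposited table); the site above 0 had its only summit in a control KD library (score 5.83). Summit and concentration thus pointed different ways there. Chrnb4, whose product forms ganglionic receptors, had a site 34.6 kb upstream with 4.83 and 3.91 (FDR of 0.528 by the authors' deposited table). A summit was found in control KD replicate 1 alone, with a score of 24.9. Chrnb1, the muscle beta subunit gene, had a site 409 bases inside its start at 4.30 and 4.28 (FDR of 0.988 by the authors' deposited table).

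Serotonin receptor genes had 5 sites, each at a different gene. Htr1d encodes a Gi-coupled receptor, and its site 3.93 kb upstream (chromosome 4, 136419491 to 136419590) had a summit in every library. The scores were 10.7 and 9.72 in control KD and 84.6 and 42.2 in Paupar KD, with both Paupar KD libraries above both control KD libraries. The concentrations were 5.47 and 6.41, a log2 change of 0.94 (p = 0.0198, FDR of 0.175 by the authors' deposited table), so the site was not called.

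The strongest serotonin receptor site was assigned to Htr6, a Gs-coupled receptor gene, but lay in intron 13 of 15 of the neighbouring gene Tmco4 (chromosome 4, 139038408 to 139038507). It had 6.29 and 5.73 (FDR of 0.490 by the authors' deposited table), and its scores were 27.6 and 28.9 in control KD and 33.3 and 44.4 in Paupar KD. Scores were higher and the concentration lower in Paupar KD at this site. Htr3a, the serotonin channel subunit gene, had a site at its start at 3.62 and 4.02 (FDR of 0.851 by the authors' deposited table) and a summit in Paupar KD replicate 1 alone (score 5.29). Htr5a had 4.50 and 4.29 (FDR of 0.913 by the authors' deposited table), with a summit in every library.

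Drd1 and Drd5 encode the Gs-coupled dopamine receptors, and each had 1 distal site. The Drd1 site (chromosome 13, 54023444 to 54023543) had scores of 13.7 and 7.29 in control KD and 13.0 and 6.43 in Paupar KD. The groups overlapped, and the concentrations were 5.02 and 4.73 (FDR of 0.840 by the authors' deposited table). The Drd5 site had 4.70 and 3.75 (FDR of 0.513 by the authors' deposited table), with a summit in 1 library of each group (6.10 and 3.27). No site of Drd2, Drd3 or Drd4 was listed.

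**Figure D4:**
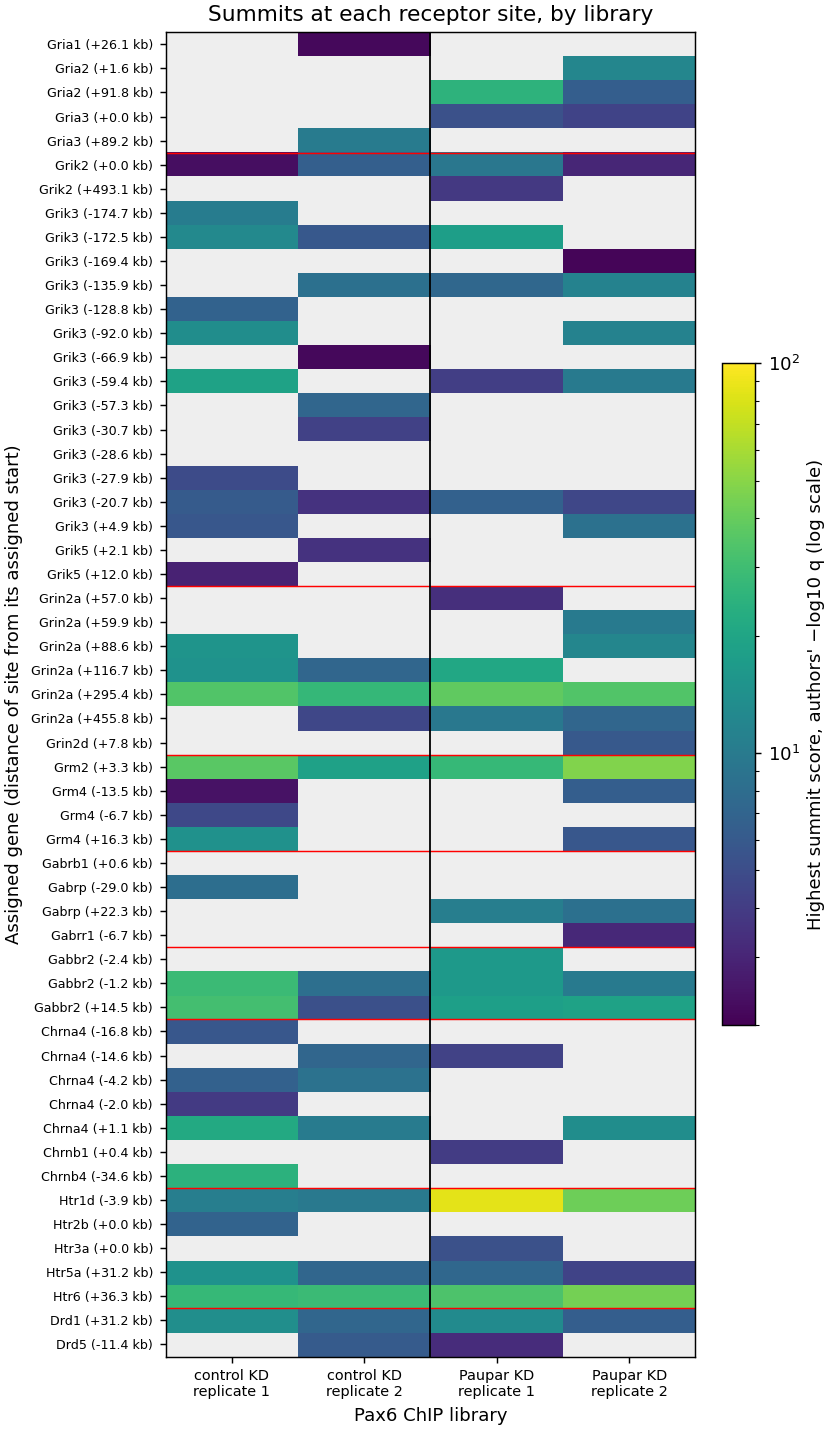
Highest summit score within 250 bp (authors' −log10 q, log colour scale) in each of the 4 libraries at the 55 receptor sites, grouped by family between red lines; grey means no summit. Of the 55 sites, 10 have a summit in all 4 libraries and 26 in 1 library alone.

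In position and strength the receptor sites differed in several counts from the whole table, and none of these differences was tested. Distal intergenic sites made up 47.3% of them against 28.9% of all sites, introns 27.3% against 36.8% and promoters 21.8% against 27.5%. Sites within 1 kb of the assigned start numbered 6 (10.9% against 19.4%). The highest quartile of mean concentration held 6 of the 55 sites (10.9%, against 24.9% of all sites). The 14 Grik3 sites share 1 locus and account for 13 of the 26 distal intergenic sites, so much of the higher distal share came from it. None of the 12 promoter sites was at Grik3. Of the 41 sites without Grik3, 12 were in promoters and 29 outside, so the lower promoter share rested on that locus.

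The sign of the change differs with strength over the whole table, so the receptor sites were also set beside sites of the same quartile of mean concentration. In the lowest quartile the median log2 change was -0.52 over 15 receptor sites and 0.72 over all sites in the authors' deposited table, but 6 of the 15 were Grik3 sites and the other 9 had a median of 0.32. The second quartile gave -0.01 over 17 receptor sites and 0.20 over all, and the third -0.52 over 17 and -0.12 over all, in the authors' deposited table. The top quartile's medians were -0.38 over 6 receptor sites and -0.36 over all in the authors' deposited table. Without Grik3 the second quartile gave 0.20 over 16 sites and the third -0.48 over 10. The sign of the median thus changed without Grik3 in the 2 lower quartiles. In the second quartile that rested on 1 Grik3 site and a median close to 0. Outside promoters the receptor median was -0.43 over 43 sites and -0.21 over the 29 without Grik3, against 0.08 over all such sites, in the authors' deposited table.

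Single libraries gave a count of receptor sites for each sample. Summits lay at 30 and 24 of the 55 receptor sites in control KD replicates 1 and 2, and at 25 and 27 in Paupar KD replicates 1 and 2. The groups overlapped, at 27.0 ± 4.24 (SD, n = 2) for control KD and 26.0 ± 1.41 (SD, n = 2) for Paupar KD. Their ratio was 0.963 (exact permutation test, two-sided p = 1.0), and without Grik3 it was 1.05. Over all listed sites the ratio was 1.39 (exact permutation test, two-sided p = 0.33, the lowest possible), and the difference between the 2 ratios was not tested. The deposited lists held 14311 and 9983 summits in control KD and 15611 and 17942 in Paupar KD.

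Receptor sites with summits in control KD libraries alone numbered 17 (30.9%, against 15.8% of all sites), and those in Paupar KD libraries alone 13 (23.6%, against 37.8%). Several of the 17 were Grik3 sites of 1 locus, whereas the only Grik3 site among the 13 lay 169 kb upstream. Without Grik3 the control KD count was no longer the higher one. Of the 17, 16 rested on 1 library, 10 on replicate 1 and 6 on replicate 2. Sites with both Paupar KD summits and neither control KD summit numbered 3 (5.45%, against 8.25% of all sites), those of Gria2 in exon 7, Gabrp in the intron and Gria3 at the start. The 1 site with both control KD summits and neither Paupar KD summit (1.82%, against 1.47% of all sites) was at Chrna4, 4.20 kb upstream of the assigned start and within the RefSeq span of the gene (chromosome 2, 181032523 to 181032622). It had scores of 6.70 and 8.76 and concentrations of 4.80 and 4.01 (FDR of 0.582 by the authors' deposited table). Summits and concentrations come from the same libraries, so these counts partly restate the concentrations.

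**Figure D5:**
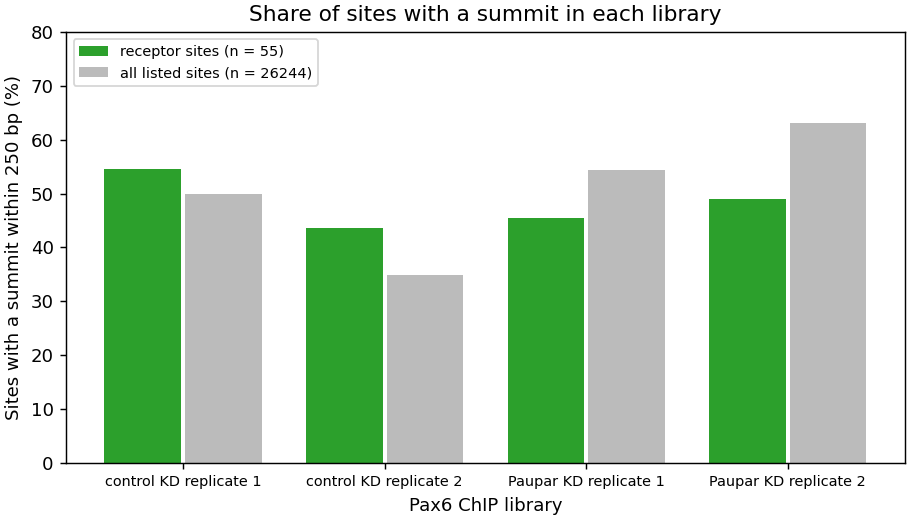
Percentage of the 55 receptor sites (green) and of all 26244 sites (grey) with a summit within 250 bp in each library. Receptor sites range from 43.6% to 54.5% over the libraries, and all sites from 34.9% to 63.1%.

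The genes that act with the receptors were taken from a list of 93 scaffolds, auxiliary subunits, transporters and transmitter enzymes, of which 54 had 170 sites. By the authors' deposited table, 8 of the 170 sites were higher (4.71%, against 3.26% of all sites) and 1 was lower (0.588%, against 0.846%), with a median log2 change of -0.06 beside -0.03 over all sites. Among enzymes, the called sites were those of Gad1 and Abat, which make and break down GABA, of Glul, which turns glutamate into glutamine, and the lower site of Th, the rate-limiting enzyme of dopamine synthesis. Gad1 had 1.51 and 5.04 in an intron (chromosome 2, 70592612 to 70592711, FDR 0.00487) in the authors' deposited table. No control KD library had a summit there, and the Paupar KD libraries had scores of 5.58 and 20.8. Abat had 2.02 and 4.69 (FDR of 0.0417 by the authors' deposited table).

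Glul had 5.66 and 7.53 at a distal site (chromosome 1, 153958226 to 153958325, FDR 1.54e-05) in the authors' deposited table, with scores of 32.2 and 11.9 in control KD and 115 and 146 in Paupar KD. Both Paupar KD libraries lay above both control KD libraries. The Th site was the strongest of the list, at 9.01 and 8.33 (FDR of 0.0361 by the authors' deposited table), with scores of 428 and 214 in control KD and 148 and 274 in Paupar KD, which overlapped. Slc6a5, the neuronal glycine transporter gene, and a second Glul site were the next strongest that were not called, at 7.09 and 7.12 (FDR 0.969) and at 7.49 and 6.92 (FDR of 0.220 by the authors' deposited table).

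Of 66 scaffold sites, 3 were higher (4.55%, against 3.26% of all sites) and 0 lower (against 0.846%). The log2 change was below 0 at 38 of the 66, with a median of -0.205. Scaffold genes with a higher site were Dlg2, a postsynaptic density protein gene, Nrxn3, a synaptic adhesion gene, and Grip1, whose product binds AMPA receptors. Dlg2 had 0.61 and 5.31 (FDR 0.000758), Nrxn3 2.53 and 5.10 (FDR 0.0200) and Grip1 0.61 and 4.41 (FDR of 0.0402 by the authors' deposited table). Kctd8, a GABA-B auxiliary subunit gene, had 5.09 for Paupar KD and the floor value of -0.01 for control KD (FDR of 0.00500 by the authors' deposited table) and a summit in Paupar KD replicate 1 alone. Slc18a1, a vesicular monoamine transporter gene, had 1.73 and 4.67 (FDR of 0.0389 by the authors' deposited table) and a summit in Paupar KD replicate 2 alone.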

How the data were processed

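Of 8 libraries, the 4 Pax6 ChIP libraries were used and the 4 inputs not analysed here. The submitters' processing notes name Bowtie2, MACS2, DiffBind, ChIPseeker and mm10. Versions, the normalization between libraries and the use of inputs were not given in the sources used here. Log2 concentrations per group, a log2 fold (sign turned here), p-values, FDRs and the −log10 of the FDR (not used) are in the authors' deposited table; the log2 scale was read from the values. The fold differed from the difference of concentrations by over 0.01 at 0 sites, and 1 blank row was left out. At 1010 sites, 3 of them receptor sites, the deposited FDR was 1 with a p below 0.99, outside the adjustment; counts and percentages use all 26244 sites. No test per site was rerun, since the table holds group means. The deposited summit score, per library, was taken to be a −log10 q-value, as its minimum is that of a q of 0.01. The summit list of control KD replicate 2 bears another replicate number in its peak names and was used under the sample that holds it. Read depth is unknown, so no counting interval is given.

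Members, lists and the rule for named genes were chosen with earlier results of these data known. The final full stop of the symbol rule was read as punctuation. Genes were named if a site was called, if it was the strongest of its family or within 1 kb of its start, if the gene had 4 or more sites, or if it was an AMPA or GABA-A gene; of the partner list, called sites and the 3 strongest. Htr1d, the other sites at an unadjusted p below 0.05 and the remaining member genes were added after their values were seen. All 24 member symbols matched the RefSeq gene table, and 19 had a RefSeq promoter window. Summit matching was tested on simulated data. Python 3.11.15, pandas 2.3.3 and numpy 2.4.6 were used, and matplotlib 3.10.9 for plots.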

Additional observations from a re-analysis of the deposited data

How the results depend on the processing

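The counts of 1 higher and 1 lower receptor site rest on FDRs of 0.0102 and 0.0448: at an FDR below 0.01 they were 0 and 0, at an unadjusted p below 0.05 they were 4 and 3, above the median of mean concentration 0 were higher, and with the full stop of the symbol rule read as 1 further character, which drops Grm4, 0 were lower. The other alternatives left both counts at 1. The median log2 change of -0.40 was -0.21 outside promoters without Grik3 and -0.255 as the median over genes of each gene's median (both chosen after seeing the data), and lay between -0.30 and -0.46 in the other alternatives run. The ratio of receptor sites with a summit was 0.963; it was 0.783 with summits within 100 bp, 0.932 within 500 bp, 0.952 with scores of at least 5, 0.667 with lists of equal length (two-sided exact permutation p = 0.33) and 1.05 without Grik3 (chosen after seeing the data), and leaving out 1 library gave 0.867 to 1.08, so its direction is not fixed. With libraries paired by replicate number (the replicate block) it was 0.968 (exact sign permutation p = 1.0, with 0.5 the smallest for 2 pairs). Whether same-numbered libraries were prepared together is not known. Their deviations correlated at 0.055 across 5247 sites. That value cannot decide it, since a shift common to all sites drops out of a correlation. Of the 170 partner list sites, 8 were higher and 1 lower, against 3.26% and 0.846% of all sites. At an FDR below 0.1 the counts were 9 and 2, against 4.99% and 1.8% of all sites. At an unadjusted p below 0.05 they were 19 and 14, against 10.7% and 6.67% of all sites. They were 4 and 0 at an FDR below 0.01, and 1 and 1 above the median of mean concentration. Calls could not be refitted without a library, as the table holds no value per library.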
